A study of Mus musculus with 12 samples.

Results

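The transcripts described here are those of 9 genes whose enzymes handle methionine, homocysteine and cysteine, or make creatine: Mat2a, Gnmt, Ahcy, Bhmt, Cbs, Cth, Cdo1, Suox and Gatm. They were taken by gene symbol from the 40213 symbols in the count files. All 9 were present, and all 9 passed the filter on low counts that left 17841 genes for testing. The members were chosen by biochemical theme with fold changes between the groups of these same libraries in view. The members' own differences between groups are therefore given below as descriptions, without p-values. Statements that a member passed or missed the threshold (was called or not called) are descriptions too, and nothing is tested by them.

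Methionine is first joined to adenosine to make S-adenosylmethionine, the methyl donor of the cell, by methionine adenosyltransferases such as Mat2a. Methyltransferases such as Gnmt spend that methyl group, and Ahcy splits the product into adenosine and homocysteine. Homocysteine is either methylated back to methionine, by Bhmt with betaine as donor or by Mtr with folate, or passed through transsulfuration, where Cbs makes cystathionine and Cth splits it to cysteine. Cysteine is oxidised by Cdo1 on the way to taurine or sulfite, and Suox turns sulfite into sulfate. Gatm makes guanidinoacetate, the precursor that Gamt methylates to creatine, and the proximal tubule of the kidney is a main site of that first step.

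Total RNA from kidneys of C57BL/6 mice was sequenced in 3 groups of 4 libraries. In the first group, mice with chronic kidney disease (CKD) on an adenine diet received colchicine, a drug that binds tubulin, at 0.3 mg/kg per day by intraperitoneal (IP) injection. In the second group, mice with adenine CKD received saline IP, with a label of 2% adenine for each library. In the control group, mice on a normal diet received saline IP. The 4 colchicine libraries carry labels of 2, 3, 4 and 5% adenine, in replicates 1 to 4, so in replicates 2 to 4 an effect of colchicine cannot be told apart from one of the labelled diet. The labels used here hold no ages or sexes. The libraries are called biological replicates but no animal is named, so each p-value reflects variation among these libraries, which may in part be technical.

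Library totals were 23872093 to 38253100 counts with colchicine, 22200909 to 27399569 in CKD and 22613647 to 31662883 in control. Mitochondrially encoded transcripts took 14.6 to 21.8% of counts with colchicine, 16.7 to 17.3% in CKD and 41.5 to 46.7% in control, which bears on how the libraries are scaled. Levels are given as counts per 1000000 (CPM) after TMM scaling (trimmed mean of M-values), which sets libraries to one another by the bulk of their genes. Differences are log2 fold changes with their standard error (SE) from one edgeR quasi-likelihood fit to all 12 libraries, and a gene was called where the Benjamini-Hochberg adjusted p over all tested genes was below 0.05.

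With TMM scaling all 9 transcripts were lower in CKD kidneys than in control kidneys, 8 of them by library totals as well and Cdo1 not, and in none of the 9 did the CKD libraries overlap the control libraries. Cbs was 23.9-fold lower, Gnmt 17.7-fold lower and Gatm 10.8-fold lower, while Cdo1, at the other end, was 1.69-fold lower. All 9 were called lower in this comparison, where 33.4% of all tested genes were called lower, 34.1% higher and 67.4% in either direction. Separation of the CKD libraries below all control libraries was seen in 33% of tested genes. The median log2 fold change of the 9 was -2.49, against 0.04 over all tested genes. Because results of this contrast were in view when the genes were chosen, these counts describe the set and nothing is read from them.

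With colchicine the 9 transcripts stayed below control and the mean of each lay below its CKD mean. The sum of the 9 levels was 315 to 383 CPM in the colchicine libraries, 452 to 489 CPM in the CKD libraries and 1909 to 2292 CPM in the control libraries. Against CKD, 4 of the 9 were called lower (Cbs, Cth, Suox and Cdo1), where 8.24% of all tested genes were called lower, 6.79% higher and 15% in either direction. None of the 9 was called higher.

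**Figure D1:**
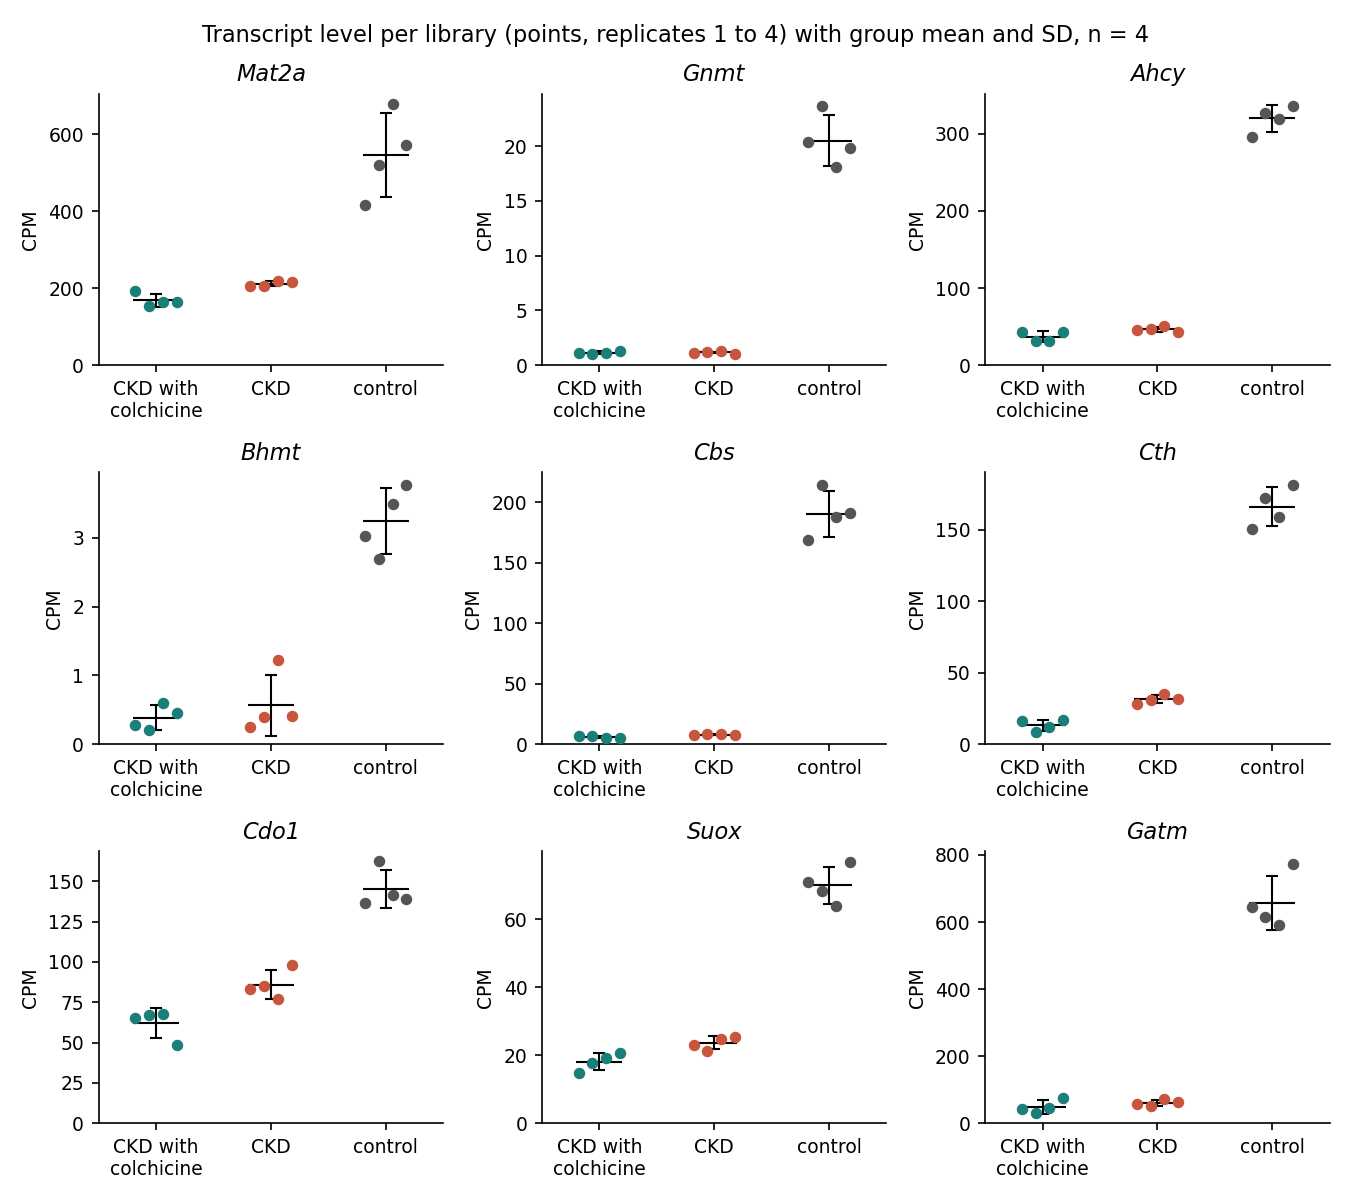
Level of each of the 9 transcripts in TMM-scaled CPM (vertical axes, each from 0), with 1 point per library, from left to right CKD with colchicine, CKD and control, and lines for the mean and SD of 4 libraries. Each control group lies above both adenine groups, most widely, as a ratio, for Cbs at 169 to 214 CPM in control libraries and least widely for Cdo1 at 137 to 163 CPM.

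The 250 bases before the transcription start are shown for 4 of these genes, as RefSeq gives them for the GRCm38.p6 build. Shown are the 3 with the largest difference between CKD and control, and Mat2a, which has the only TATA box among the members matched. Whether these bases bear on the differences was not tested. Each is written 5′ to 3′ on the minus strand, and capitals mark matches, on either strand, to the CCAAT box, the GC box, the TATA box or the E-box, whose letters follow the sequences. In Mat2a a pair of GC box matches overlap. The Cbs bases are at chr17:31637206-31637455, the Gnmt bases at chr17:46729166-46729415, the Gatm bases at chr2:122611278-122611527 and the Mat2a bases at chr6:72439557-72439806.
Cbs: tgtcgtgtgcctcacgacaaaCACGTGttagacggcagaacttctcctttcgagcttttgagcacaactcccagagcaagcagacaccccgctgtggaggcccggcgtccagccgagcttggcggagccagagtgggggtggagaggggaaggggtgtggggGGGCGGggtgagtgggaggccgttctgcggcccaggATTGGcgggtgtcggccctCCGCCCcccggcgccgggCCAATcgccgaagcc
Gnmt: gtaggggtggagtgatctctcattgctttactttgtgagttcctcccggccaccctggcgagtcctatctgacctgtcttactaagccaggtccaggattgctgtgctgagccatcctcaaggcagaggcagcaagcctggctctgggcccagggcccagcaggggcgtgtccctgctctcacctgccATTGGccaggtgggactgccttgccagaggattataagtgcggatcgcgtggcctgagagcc
Gatm: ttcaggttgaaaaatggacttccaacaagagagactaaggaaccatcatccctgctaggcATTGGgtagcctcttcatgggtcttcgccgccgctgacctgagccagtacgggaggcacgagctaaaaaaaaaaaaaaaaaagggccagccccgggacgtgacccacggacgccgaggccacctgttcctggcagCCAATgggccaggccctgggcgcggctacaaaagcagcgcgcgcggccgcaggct
Mat2a: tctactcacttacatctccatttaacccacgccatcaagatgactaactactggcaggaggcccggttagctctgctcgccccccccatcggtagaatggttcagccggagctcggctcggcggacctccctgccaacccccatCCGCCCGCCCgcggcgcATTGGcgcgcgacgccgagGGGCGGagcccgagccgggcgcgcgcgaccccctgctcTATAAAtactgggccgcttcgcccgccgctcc

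Promoters of 7 of the 9 genes were matched in the RefSeq table, each from 250 bases before the start to 50 after it. The CCAAT box (CCAAT) was in all 7, against 37.4% of the 32851 promoters in the table. The GC box (GGGCGG) was in 4 of the 7 (Cbs, Ahcy, Mat2a and Suox), against 35.7% of all promoters. The TATA box (TATAAA) was in Mat2a alone, against 13.6%, and the E-box searched (CACGTG) was in Cbs alone, against 7.15%. The searched motif of the tubular factor HNF1 was in 0 of the 7 and 0.00913% of all promoters, and that of HNF4 (CAAAGTCCA) was in 0 of the 7 and 0.475%. The core of the antioxidant response element (TGACNNNGC) and that of the C/EBP-ATF response element (TGATGNAA) were also in 0 of the 7, against 12.4% and 3.97% of all promoters. These matches describe letters in a window and were not tested.

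Mat2a, which makes S-adenosylmethionine outside the adult liver, had 193, 153, 164 and 164 CPM in the colchicine libraries. It had 206, 206, 219 and 215 CPM in the CKD libraries and 416, 520, 679 and 571 CPM in the control libraries. The 3 groups did not overlap, and the control libraries were the most spread. CKD kidneys held 38.7% of the control mean, a log2 fold change of -1.37 ± 0.12 (SE, n = 4 each), and colchicine kidneys held 30.8%. Against CKD, the log2 fold change with colchicine was -0.33 ± 0.12 and was not called, but without colchicine replicate 1 it was -0.40 and was called. Mat1a, the liver form of the same enzyme, had only 30 counts over the 4 colchicine libraries, 16 over the CKD libraries and 4 over the control libraries, and was not tested.

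Gnmt, which methylates glycine to sarcosine and so uses up S-adenosylmethionine, had 1.14, 0.989, 1.11 and 1.32 CPM in the colchicine libraries. It had 1.13, 1.21, 1.25 and 1.05 CPM in the CKD libraries and 20.4, 23.7, 18.1 and 19.9 CPM in the control libraries. The colchicine and CKD libraries were interleaved, and both lay far below every control library. The adenine groups rest on 38 to 55 counts per colchicine library and 32 to 42 per CKD library. The log2 fold change was -4.14 ± 0.14 for CKD against control. For colchicine against CKD it was -0.03 ± 0.15, the smallest of the 9 in size.

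Ahcy, which clears S-adenosylhomocysteine, had 43.3, 31.6, 30.8 and 42.8 CPM with colchicine, 45.4, 46.4, 50.5 and 42.8 CPM in CKD, and 296, 327, 320 and 336 CPM in control. CKD kidneys held 14.5% of the control mean, a log2 fold change of -2.79 ± 0.11. Colchicine replicate 1 lay inside the CKD range, replicate 4 just under its lowest library and replicates 2 and 3 further down, for a log2 fold change of -0.32 ± 0.11 that was not called. Ahcy was called without colchicine replicate 1, at -0.41, and without colchicine replicate 4, at -0.40. In the annotation used here, 79.4% of the 31-base words of the Ahcy transcript also occur in transcripts of 4 other genes, led by Gm4737, so reads shared with those copies may be split and its level is uncertain.

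Bhmt, which returns homocysteine to methionine with betaine and is known in mice mainly from liver, was barely detected. Its counts were 9 to 30 per colchicine library, 7 to 41 per CKD library and 51 to 65 per control library. In CPM these were 0.272, 0.212, 0.604 and 0.452 with colchicine, 0.246, 0.392, 1.22 and 0.409 in CKD, and 3.03, 2.70, 3.49 and 3.77 in control. Both adenine groups lay below control, but they overlapped each other, and CKD replicate 3 stood above the other CKD libraries. The log2 fold change was -2.49 ± 0.43 for CKD against control and -0.56 ± 0.46 for colchicine against CKD; without CKD replicate 3 the colchicine value was 0.14. Of its 31-base words, 69.5% occur in other transcripts, led by Gm5096 and Bhmt-ps1, so its reads are uncertain as well. The neighbouring paralogue Bhmt2, which uses S-methylmethionine, was the more abundant per length in control, at 40.0 CPM per kilobase of transcript against 1.30 for Bhmt.

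Cbs, which commits homocysteine to transsulfuration, had 6.38, 6.64, 5.30 and 5.50 CPM in the colchicine libraries. It had 7.49, 8.55, 8.31 and 7.54 CPM in the CKD libraries and 169, 214, 188 and 191 CPM in the control libraries. The groups did not overlap, and the step between CKD and control far exceeded the one between the adenine groups. CKD kidneys held 4.19% of the control mean, a log2 fold change of -4.58 ± 0.10, and only 0.645% of tested genes had a lower one. Colchicine kidneys held 3.13%, and the log2 fold change against CKD was -0.42 ± 0.10, called with all libraries but not without CKD replicate 3, at -0.40.

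Cth, which splits cystathionine to cysteine and can release hydrogen sulfide, had 16.1, 8.55, 11.7 and 16.8 CPM in the colchicine libraries. It had 28.2, 30.8, 34.7 and 31.7 CPM in the CKD libraries and 151, 172, 159 and 181 CPM in the control libraries. The 3 groups were well apart from one another. Cth was lower by 2.40 ± 0.17 on the log2 scale in CKD than in control. With colchicine it was lower than in CKD by 1.24 ± 0.17, the largest colchicine difference among the 9. Colchicine kidneys thus held 8.02% of the control mean and CKD kidneys 18.9%. Only 0.678% of tested genes had a lower log2 fold change between colchicine and CKD. With the colchicine library labelled 2% adenine alone, the log2 fold change of Cth was -0.96.

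Cdo1, the dioxygenase that oxidises cysteine, had 65.3, 67.0, 67.8 and 48.4 CPM in the colchicine libraries. It had 83.1, 85.1, 77.3 and 98.4 CPM in the CKD libraries and 137, 163, 142 and 139 CPM in the control libraries. The groups did not overlap, and colchicine replicate 4 lay below the other colchicine libraries. The log2 fold change was -0.76 ± 0.11 for CKD against control and -0.47 ± 0.11 for colchicine against CKD. As raw counts the CKD and control libraries overlapped, at 2364 to 3370 per CKD library against 2070 to 3197 per control library. The direction of Cdo1 in CKD therefore depended on scaling: by library totals only, its log2 fold change was 0.26 and was not called.

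Suox, the sulfite oxidase of the mitochondrion, had 14.7, 17.7, 19.2 and 20.6 CPM with colchicine, 23.1, 21.1, 24.9 and 25.4 CPM in CKD, and 70.9, 68.2, 63.7 and 76.8 CPM in control. No 2 of the groups overlapped. The log2 fold change was -1.57 ± 0.10 for CKD against control, with 33.8% of the control mean left in CKD kidneys and 25.8% left with colchicine. Between colchicine and CKD it was -0.39 ± 0.10 and was called, but not under upper-quartile scaling (-0.32), nor without CKD replicate 3 (-0.37), CKD replicate 4 (-0.36) or colchicine replicate 2 (-0.38).

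Gatm, which transfers the amidino group of arginine to glycine, had 43.0, 29.1, 45.7 and 76.1 CPM in the colchicine libraries. It had 57.2, 52.3, 72.0 and 62.3 CPM in the CKD libraries and 646, 614, 591 and 773 CPM in the control libraries. Both adenine groups were far below control, but colchicine replicate 4 lay above every CKD library while the other 3 colchicine libraries lay below them all. The log2 fold change was -3.43 ± 0.24 for CKD against control, which left 9.29% of the control mean in CKD kidneys and 7.39% with colchicine. Against CKD it was -0.33 ± 0.23 and was not called; without colchicine replicate 4 it was -0.64 and was called. The relative spread of Gatm among colchicine libraries, a coefficient of variation of 40.9%, exceeded that of every other member in that group except Bhmt, at 46.3%.

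**Figure D2:**
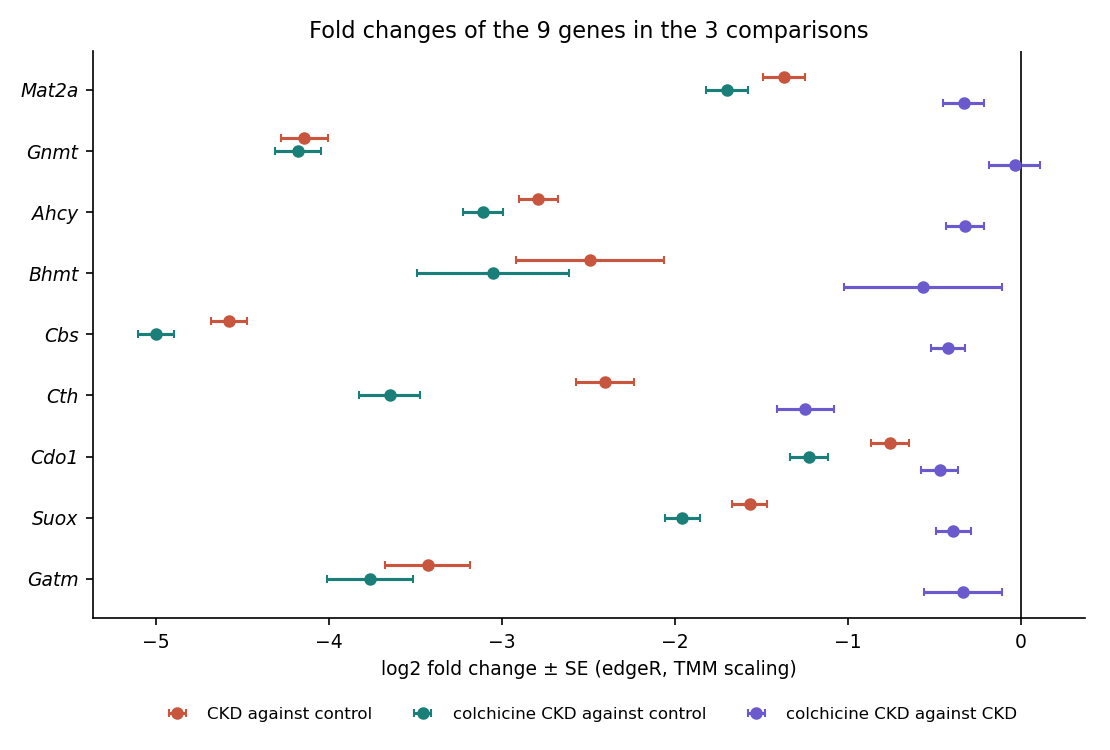
Log2 fold change of each of the 9 transcripts (horizontal axis, edgeR with TMM scaling) in CKD against control, colchicine CKD against control and colchicine CKD against CKD, with bars of 1 SE. Cbs lies lowest in both comparisons with control, at -4.58 for CKD and -5.00 for colchicine, and Cth stands out between colchicine and CKD at -1.24.

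Levels of different genes were set side by side per kilobase of transcript, using the principal transcript in GENCODE M21, an annotation of another build than the one the files were made with. In control kidneys the order was Gatm at 275 ± 34.0 CPM per kilobase (SD, n = 4), Mat2a at 195 ± 39.0, Ahcy at 126 ± 6.68, Cth at 91.4 ± 7.49, Cdo1 at 91.0 ± 7.50, Cbs at 30.6 ± 3.00, Suox at 28.0 ± 2.19, Gnmt at 19.8 ± 2.26 and Bhmt at 1.30 ± 0.191. Cth and Cdo1 overlapped in that order, as did Cbs and Suox, and no other neighbours did. The place of Cbs depends on its transcript: with the shorter of its 2 principal transcripts, of 2533 bases in place of 6226, its level in control kidneys was 75.2 CPM per kilobase.

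In CKD kidneys the order was Mat2a at 75.4 ± 2.35 CPM per kilobase, Cdo1 at 53.9 ± 5.60, Gatm at 25.5 ± 3.53, Ahcy at 18.2 ± 1.25, Cth at 17.3 ± 1.49, Suox at 9.46 ± 0.776, Cbs at 1.28 ± 0.0862, Gnmt at 1.12 ± 0.0859 and Bhmt at 0.228 ± 0.177. Ahcy and Cth overlapped, and so did Cbs and Gnmt. Gatm was thus the highest of the 9 in control kidneys and stood below Mat2a and Cdo1 in CKD kidneys. With colchicine, Mat2a at 60.0 ± 6.07 CPM per kilobase and Cdo1 at 38.9 ± 5.79 again led, followed by Gatm at 20.3 ± 8.29, which overlapped Cdo1 and Ahcy. Cth, at 7.33 ± 2.15 CPM per kilobase with colchicine, overlapped Suox at 7.22 ± 1.02, and Gnmt at 1.10 ± 0.133 overlapped Cbs at 0.956 ± 0.106. Both overlaps of Cbs with Gnmt rest on the Cbs transcript of 6226 bases, and the shorter one, of 2533 bases, places Cbs higher.

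Around these 9 genes, 88 further genes of neighbouring steps were listed, of which 82 were tested. In CKD against control 62 of the 82 were called lower and 6 higher, with a median log2 fold change of -1.16. Of all tested genes, 33.4% were called lower and 34.1% higher. By library totals only, 40 were called lower and 31 higher. Over all 17841 tested genes, 1850 were then called lower and 13197 higher. Each list's count by library totals is to be read beside these. The neighbouring genes are therefore given list by list, each with its count under both scalings. Like the 9, these lists and the markers were chosen with earlier results of these data known. Apart from the genes followed throughout, examples were picked from each list by their small p in the same fit. Adjusted p-values and calls given below for listed genes and markers are therefore descriptions, and are not tests of genes chosen beforehand.

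Of 9 tested genes of the methionine cycle and remethylation, 7 were called lower in CKD and none higher, but by library totals only 3 were lower and 5 higher. Bhmt2 averaged 9.66 ± 1.27 CPM in CKD and 98.7 ± 5.88 CPM in control (SD, n = 4 each), a log2 fold change of -3.35 ± 0.14 (edgeR adjusted p = 3.39e-11). Ahcyl2, an Ahcy-like protein, was lower by a log2 fold change of -1.86 ± 0.09 (edgeR adjusted p = 1.52e-10). Mtr, the folate-dependent methionine synthase, was at -0.49 ± 0.15 (edgeR adjusted p = 0.00916), and its direction reversed to 0.51 by library totals only.

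Of 10 genes that feed methyl groups in from choline and betaine or cleave glycine, 9 were called lower and none higher; by library totals only 9 were lower and 1 higher. Aldh7a1, which can oxidise betaine aldehyde, had a log2 fold change of -2.20 ± 0.09 (edgeR adjusted p = 1.85e-11). Gcsh, the carrier protein of the glycine cleavage system, was at -1.94 ± 0.08 (edgeR adjusted p = 2.75e-11). Of 6 tested genes of serine supply, 5 were called lower, with Shmt2, which interconverts serine and glycine in mitochondria, at -2.55 ± 0.07 (edgeR adjusted p = 7.38e-13) and Srr, serine racemase, at -1.86 ± 0.09 (edgeR adjusted p = 1.16e-10). By library totals only 2 of those 6 were lower and 3 higher.

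The creatine genes other than Gatm moved in both directions. Of 7 tested, 5 were called lower and 2 higher, and by library totals only 1 was lower and 5 were higher. Gamt, which completes creatine, averaged 5.45 ± 0.492 CPM in CKD and 16.1 ± 0.703 CPM in control, a log2 fold change of -1.56 ± 0.16 (edgeR adjusted p = 3.28e-07). Slc6a8, the creatine transporter, was at -0.78 ± 0.08 (edgeR adjusted p = 6.59e-07), but at 0.23 by library totals only. Arg2, the mitochondrial arginase that competes with Gatm for arginine, rose to 44.9 ± 0.624 CPM in CKD, against 4.60 ± 0.724 CPM in control, a log2 fold change of 3.29 ± 0.15 (edgeR adjusted p = 5.17e-11).

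Of 9 tested genes of cysteine breakdown, taurine, sulfide and sulfite, 7 were called lower in CKD and 1 higher, and by library totals only 6 were lower and 2 higher. Csad, the decarboxylase on the way to taurine, averaged 32.7 ± 1.41 CPM in CKD and 263 ± 19.0 CPM in control, a log2 fold change of -3.01 ± 0.11 (edgeR adjusted p = 5.91e-12). Sqor, which oxidises hydrogen sulfide in mitochondria, was at -1.85 ± 0.08 (edgeR adjusted p = 3.34e-11), and Mpst, a mercaptopyruvate sulfurtransferase, at -1.72 ± 0.11 (edgeR adjusted p = 2.12e-09). Of 8 genes of molybdenum cofactor and sulfate, 7 were called lower and none higher, against 4 lower and 2 higher by library totals only. Mocs2, needed for the cofactor that Suox carries, was at -1.55 ± 0.07 (edgeR adjusted p = 3.84e-11), and Papss2, which activates sulfate, at -2.43 ± 0.12 (edgeR adjusted p = 9.6e-11).

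Cystine uptake held the widest spread of the 10 lists: of 5 genes, 3 were called lower and 1 higher, and by library totals only 3 lower and 2 higher. Slc7a13, a cystine and acidic amino acid transporter of the proximal tubule, averaged 3.76 ± 1.60 CPM in CKD and 959 ± 83.2 CPM in control, a log2 fold change of -7.98 ± 0.24 (edgeR adjusted p = 3.31e-12). Slc7a11, the cystine-glutamate exchanger, averaged 14.7 ± 1.88 CPM in CKD and 0.310 ± 0.138 CPM in control, a log2 fold change of 5.56 ± 0.22 (edgeR adjusted p = 1.27e-11). Its control level was near the floor, below that of Bhmt in control at 3.25 CPM. Leaving out single libraries moved the Slc7a11 value between 5.29 and 5.73. Slc3a1 and Slc7a9, the subunits of the tubular cystine transporter affected in human cystinuria, were at -2.41 ± 0.28 (edgeR adjusted p = 7.17e-06) and -1.81 ± 0.16 (edgeR adjusted p = 1.66e-07).

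Of 10 genes of glutathione synthesis and turnover, 9 were called lower and none higher, and by library totals only 7 lower and 1 higher. Ggct, which breaks down gamma-glutamyl amino acids, was at -3.31 ± 0.11 (edgeR adjusted p = 1.75e-12) and Gss, glutathione synthetase, at -2.39 ± 0.08 (edgeR adjusted p = 2.59e-12). Of 10 genes of polyamines and methionine salvage, 4 were called lower and 1 higher, with a median log2 fold change of -0.15, and by library totals only 3 lower and 7 higher. Odc1, ornithine decarboxylase, was nevertheless at -3.46 ± 0.13 (edgeR adjusted p = 9.11e-12), and Adi1 of the salvage pathway at -1.24 ± 0.06 (edgeR adjusted p = 3.95e-11). Of 8 other methyltransferases that use S-adenosylmethionine, 6 were called lower and 1 higher, and by library totals only 2 lower and 3 higher. Inmt, which methylates indole amines, averaged 6.43 ± 0.977 CPM in CKD and 631 ± 117 CPM in control, a log2 fold change of -6.61 ± 0.20 (edgeR adjusted p = 1.84e-12), and Tpmt, which methylates thiopurines, was at -2.27 ± 0.11 (edgeR adjusted p = 1.53e-10).

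**Figure D3:**
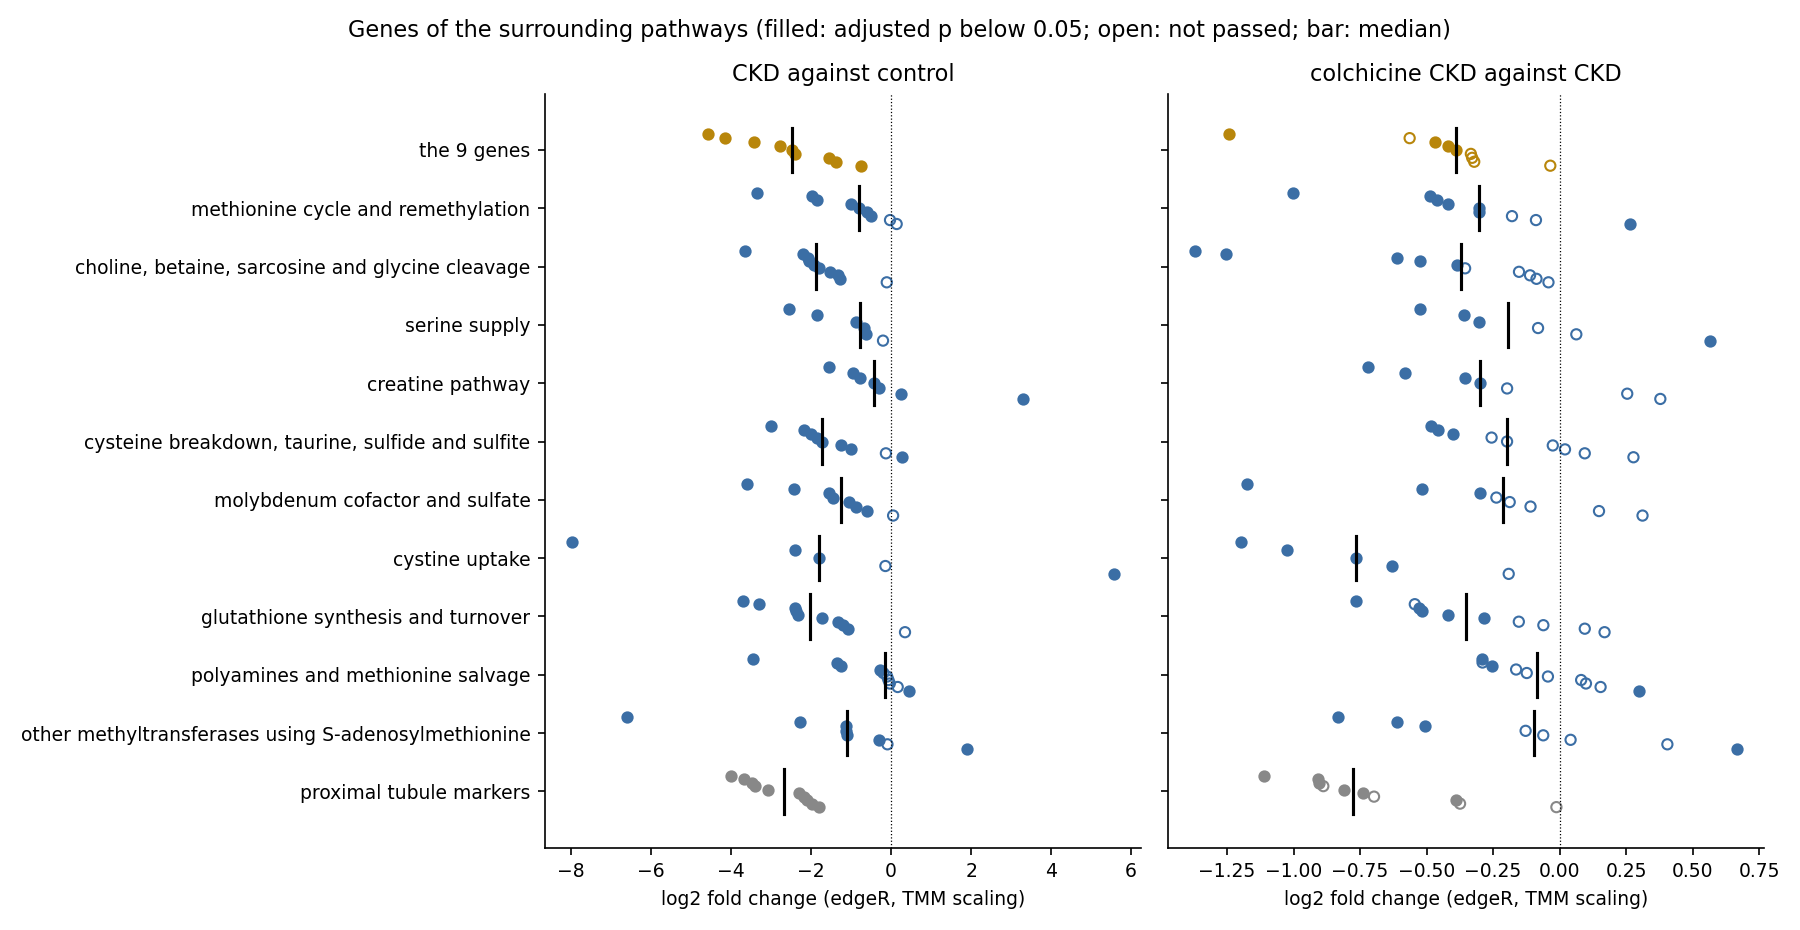
Log2 fold changes (horizontal axes, edgeR with TMM scaling) of the 9 genes, of the genes in each neighbouring list and of proximal tubule markers, in CKD against control and in colchicine CKD against CKD; filled points passed an adjusted p below 0.05, open points did not, and bars are medians. In CKD against control the medians lie below 0 in every list, from -0.15 for polyamines and methionine salvage to -2.69 for proximal tubule markers, while Slc7a11 and Arg2 stand to the right at 5.56 and 3.29; by library totals only, the medians of 4 lists lie above 0 (methionine cycle, serine, creatine and polyamines).

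Markers of the proximal tubule moved with the members. In CKD against control 10 of the 10 were called lower, under TMM and by library totals only, with a median log2 fold change of -2.69 beside -2.49 for the 9 genes. Of all tested genes, 33.4% were called lower under TMM, and 1850 of 17841 by library totals only. The summed level of these markers was 572 to 973 CPM with colchicine, 995 to 1285 CPM in CKD and 9554 to 10318 CPM in control. Between colchicine and CKD 6 of the 10 were called lower, with a median of -0.78, where 8.24% of all tested genes were called lower. That count was 4 under upper-quartile scaling and 5 with the labelled adenine percentage as a slope. In those fits 1185 and 616 of the 17841 tested genes were called lower. When the only colchicine library labelled 2% adenine was used alone, the median was -0.69. In these bulk libraries, fewer cells of a type and less RNA per cell cannot be told apart.

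Summed markers of other kidney cells were lower in CKD as well under TMM scaling. Of all tested genes, 33.4% were called lower and 34.1% higher in this comparison. By library totals only, 1850 of 17841 were called lower and 13197 higher. Collecting duct markers summed to 68.2 to 81.3 CPM with colchicine, 107 to 122 CPM in CKD and 432 to 606 CPM in control. In CKD against control 6 of the 6 were called lower, with a median log2 fold change of -2.28, and by library totals only 4 lower and 1 higher. Thick ascending limb and distal tubule markers summed to 877 to 1278 CPM with colchicine, 1462 to 1781 CPM in CKD and 2346 to 2944 CPM in control. Of these 4 of 6 were called lower in CKD and 1 higher, with a median of -1.19, and by library totals only 1 lower and 2 higher. Endothelial markers summed to 330 to 423 CPM with colchicine, 290 to 320 CPM in CKD and 422 to 480 CPM in control. Of these 4 of 5 were called lower in CKD, with a median of -0.46, and by library totals only 1 lower and 3 higher.

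Summed leukocyte, fibroblast and injured tubule markers were higher in CKD. Over all tested genes, 34.1% were called higher and 33.4% lower in CKD against control. Summed leukocyte markers were at 237 to 320 CPM with colchicine, 373 to 402 CPM in CKD and 58.1 to 63.0 CPM in control, with 5 of 6 called higher in CKD against control. Summed fibroblast markers were at 3902 to 5063 CPM with colchicine, 3126 to 3725 CPM in CKD and 357 to 427 CPM in control, with 6 of 6 called higher in CKD. Injured tubule markers were at 1508 to 2297 CPM with colchicine, 1492 to 1641 CPM in CKD and 124 to 150 CPM in control, again with 6 of 6 higher. Hepatocyte markers, relevant because several members are best known from liver, summed to 45.1 to 77.4 CPM with colchicine, 143 to 171 CPM in CKD and 354 to 608 CPM in control. Of the 4 tested, 3 were called lower in CKD, and by library totals only 2 lower and 1 higher. The other 2 of the 6, Ahsg and F2, were too low to test. Ahsg went the other way, with 36 counts over the colchicine libraries, 21 over CKD and 11 over control. F2 had 20, 11 and 39 counts in the same order. The part of these shifts in the members' differences was not tested.

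Scaling bore on every comparison with control. By library totals only, the log2 fold change of the median gene between CKD and control was 1.05, in place of 0.04 under TMM, with 13197 genes called higher and 1850 lower in place of 6076 higher and 5952 lower. Every member was shifted with it: by library totals only, Cbs was at -3.57, Gnmt at -3.13, Gatm at -2.42, Ahcy at -1.78, Bhmt at -1.49, Cth at -1.40, Suox at -0.55 and Mat2a at -0.37, all called lower, and only Cdo1 crossed 0. With upper-quartile factors the median gene was at 0.17, with 7118 genes called higher and 5092 lower, and all 9 members were called lower.

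**Figure D4:**
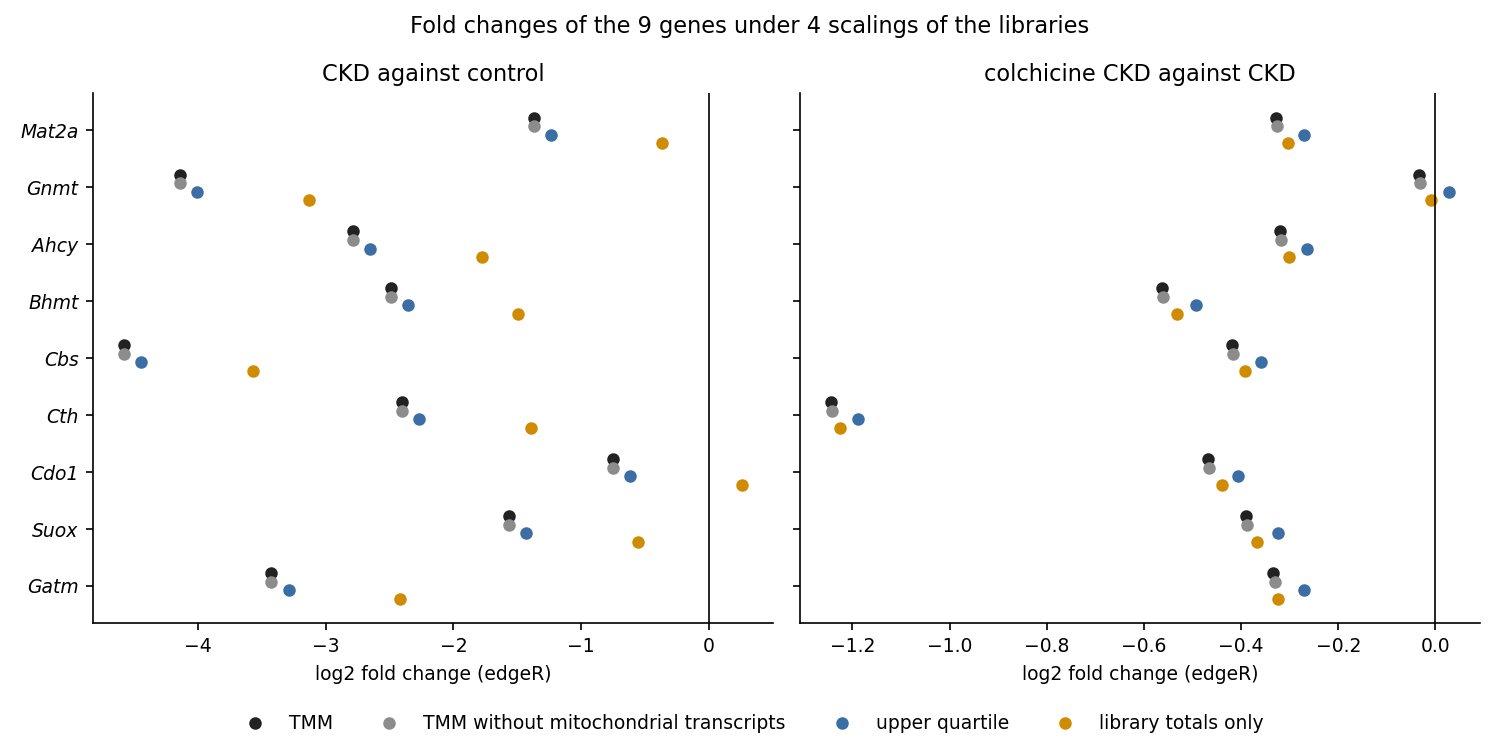
Log2 fold change (horizontal axes, edgeR) of each of the 9 transcripts under TMM, TMM without mitochondrial transcripts, upper-quartile scaling and library totals only, in CKD against control and in colchicine CKD against CKD. By library totals only, every CKD value moves to the right and Cdo1 passes 0, at 0.26; between colchicine and CKD the scalings lie close together.

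Against control, colchicine kidneys showed the same 9 genes called lower, where 33.4% of all tested genes were called lower, 37.1% higher and 70.5% in either direction, and no member overlapped control, against 30.3% of tested genes with colchicine libraries below all control libraries. This comparison shares its control libraries with the one above and is set beside it for that reason only. The log2 fold changes were -5.00 ± 0.10 for Cbs, -4.18 ± 0.13 for Gnmt, -3.76 ± 0.25 for Gatm, -3.65 ± 0.18 for Cth, -3.11 ± 0.12 for Ahcy, -3.05 ± 0.44 for Bhmt, -1.96 ± 0.10 for Suox, -1.70 ± 0.12 for Mat2a and -1.22 ± 0.11 for Cdo1. Among the neighbouring genes 66 of 82 were called lower and 7 higher, and 47 lower and 25 higher by library totals only. By library totals only, 1953 of all 17841 tested genes were called lower and 13762 higher. Bhmt2 averaged 4.87 ± 1.29 CPM with colchicine against 98.7 ± 5.88 CPM in control, a log2 fold change of -4.36 ± 0.15 (edgeR adjusted p = 3.51e-12).

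Between colchicine and CKD, the members with non-overlapping groups were Cbs, Cth, Mat2a, Suox and Cdo1, all 5 lower with colchicine, where 9.29% of tested genes had colchicine libraries below all CKD libraries. Bhmt, Gnmt, Ahcy and Gatm overlapped. The median log2 fold change of the 9 was -0.39, against 0.03 over all tested genes. The adenine label bears directly on this comparison, because only colchicine replicate 1 carries the same label as the CKD libraries. In that library 6 of the 9 members lay below all 4 CKD libraries (Cbs, Cth, Mat2a, Gatm, Suox and Cdo1), as did 28.9% of all tested genes. In replicates 2, 3 and 4, labelled 3, 4 and 5% adenine, 9, 7 and 6 members did, and 35.0, 35.4 and 33.9% of tested genes.

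When the labelled adenine percentage was fitted as a slope and the groups were compared at 2%, 2 of the 9 members were called lower, Cth at -1.32 and Suox at -0.64, while Cbs was at -0.28 and Cdo1 at -0.29. In that fit 616 of the 17841 tested genes were called lower, in place of 1470. When colchicine replicate 1 alone was set against the CKD libraries, only Suox was called, at -0.69, while Cth was at -0.96, Cbs at -0.32 and Cdo1 at -0.40. With that library alone, 328 of the 17841 were called lower, and the lone library is assumed to vary like the libraries of the other groups. Leaving out CKD replicate 3 left Cth and Cdo1 called, with 573 genes called lower over all tested genes. Leaving out colchicine replicate 1 or replicate 4 brought the member count to 6, with 3519 and 1252 genes called lower. Ahcy was also called by DESeq2 and by limma-voom, at -0.34 in both, and Mat2a by DESeq2, at -0.35, and when the control libraries were kept out of the fit, at -0.33. Over all genes, 992 were called without CKD replicate 3 and 6401 without colchicine replicate 1, in place of 2682.

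Scaling also moved the balance over all genes here, with 1764 called higher and 1185 lower by upper quartile, and 1277 higher and 1066 lower by library totals, in place of 1212 higher and 1470 lower. Where 8.24% of all tested genes were called lower with colchicine and 6.79% higher, 38 of the 82 neighbouring genes were called lower and 4 higher. With the adenine slope these were 23 lower and 2 higher, and with the library labelled 2% alone 7 lower and 2 higher. Without colchicine replicate 1 they were 45 lower and 8 higher, but calls over all tested genes rose as well, to 3519 lower and 2882 higher. By list, 6 of 9 methionine cycle genes, 5 of 10 choline and glycine genes, 3 of 6 serine genes, 4 of 7 creatine genes, 3 of 9 cysteine breakdown genes, 3 of 8 molybdenum and sulfate genes, 4 of 5 cystine uptake genes, 5 of 10 glutathione genes, 2 of 10 polyamine and salvage genes and 3 of 8 methyltransferases were called lower. The 4 called higher fell 1 each in the methionine cycle, serine, polyamine and methyltransferase lists.

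Dmgdh, which demethylates dimethylglycine made by Bhmt, averaged 3.56 ± 1.14 CPM with colchicine and 9.04 ± 1.19 CPM in CKD, a log2 fold change of -1.37 ± 0.18 (edgeR adjusted p = 0.000793). Bhmt2 averaged 4.87 ± 1.29 CPM with colchicine and 9.66 ± 1.27 CPM in CKD, at -1.004 ± 0.15 (edgeR adjusted p = 0.00129), and stayed called in all 19 alternatives tried. Slc7a13 averaged 1.66 ± 0.200 CPM with colchicine and 3.76 ± 1.60 CPM in CKD, at -1.20 ± 0.23 (edgeR adjusted p = 0.00638). Slc7a11, which was raised in CKD, was lower with colchicine, at -0.63 ± 0.14 (edgeR adjusted p = 0.00984), and Arg2 likewise, at -0.72 ± 0.12 (edgeR adjusted p = 0.00345), although Arg2 was not called with the adenine slope, at -0.42. Slc7a13 was not called with the adenine slope either, at -1.10. With the library labelled 2% alone, Dmgdh, Slc7a13, Slc7a11 and Arg2 were not called, at -1.02, -0.98, -0.71 and -0.54. With colchicine both Slc7a11 and Arg2 stood above control, by log2 fold changes of 4.93 ± 0.22 for Slc7a11 (edgeR adjusted p = 3.89e-11) and 2.57 ± 0.15 for Arg2 (edgeR adjusted p = 5.05e-10).

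In serine supply the members of the list parted. Shmt1, the cytosolic hydroxymethyltransferase, averaged 17.6 ± 0.951 CPM with colchicine and 25.3 ± 1.42 CPM in CKD, a log2 fold change of -0.52 ± 0.07 (edgeR adjusted p = 0.000992). Phgdh, the entry enzyme of serine synthesis, averaged 20.8 ± 3.48 CPM with colchicine and 14.0 ± 2.05 CPM in CKD, at 0.57 ± 0.13 (edgeR adjusted p = 0.0109). Of the genes followed throughout, Mtr at -0.18 ± 0.15 (edgeR adjusted p = 0.415), Gamt at 0.25 ± 0.15 (edgeR adjusted p = 0.262), Slc6a8 at -0.20 ± 0.08 (edgeR adjusted p = 0.115), Csad at 0.09 ± 0.10 (edgeR adjusted p = 0.542) and Mpst at 0.02 ± 0.11 (edgeR adjusted p = 0.91) did not pass the test between colchicine and CKD. Some of these were called in some alternatives: Gamt at 0.41 and Csad at 0.20 without colchicine replicate 1, and Slc6a8 with the adenine slope at -0.42, by DESeq2 at -0.22 and without colchicine replicate 4 at -0.28. Slc7a9 was at -0.76 ± 0.16 (edgeR adjusted p = 0.00994) and Slc3a1 at -1.02 ± 0.27 (edgeR adjusted p = 0.0277), the first of which was not called with the library labelled 2% alone, at -0.78. Slc3a1 lost its call with that library alone, at -0.42, with the adenine slope, at -0.89, and at -1.03 both with no low-count filter and with the control libraries kept out of the fit. It also lost it when CKD replicate 1 or 3 or colchicine replicate 2 or 3 was left out, at -0.85 to -0.97.

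The genes whose pattern over the 12 libraries was most like that of Cbs, by Pearson's r of log2 CPM among 10143 genes with a mean of at least 10 CPM, were Bdh1, Agpat3 and Scrn3, each at r = 0.998. For Gatm they included Slc6a19 (a neutral amino acid transporter of the proximal tubule) and Abca3, also each at r = 0.998. All of these points share the difference between control and adenine libraries, and 27.7% of the genes compared reached an r above 0.9 with Cbs and 26.5% with Gatm, so the likeness is a description only.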

How the data were processed

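Kidney RNA was measured in 12 libraries, 4 per group, grouped by the sample titles. Per the labels' protocols, RNAiso Plus was used for extraction and a CORALL kit for library preparation. The submitters' processing notes name Salmon, STAR and fastp and the GRCm39 build, without their versions, settings or annotation. Deposited values were whole numbers per gene and library, read here as the authors' expected counts (estimated counts) rounded to whole numbers. No source used here says whether molecular identifiers were counted.

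The counts were fitted with edgeR 4.0.16 in R 4.3.3: filterByExpr with a minimum count of 10, TMM factors, robust quasi-likelihood fits to 3 group means, two-sided F tests and Benjamini-Hochberg adjustment over the 17841 tested genes. CPM are TMM-scaled. On simulated counts in which 200 of 17841 genes changed, the model recovered 69% of genes changed by a fold of 2 for CKD against control, 70% for colchicine against CKD and 71.5% for colchicine against control, and 88, 94 and 93% of those changed by a fold of 4. The simulated libraries held far fewer changed genes than the 12028 called between CKD and control. These percentages therefore do not show how the model performs under so broad a shift.

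The 9 genes, the neighbouring lists and the markers were chosen with earlier results of these data known. Besides the 9, the genes named are Bhmt2, Mat1a, Mtr, Gamt, Slc6a8, Csad, Mpst, Slc3a1 and Slc7a9 throughout, examples from the 2 genes of each list with the smallest p in each comparison, and the 3 genes most like Cbs and most like Gatm, of which 1 is not reported here. Alternatives were DESeq2 1.42.0, limma-voom (limma 3.58.1), other scalings and low-count filters, only the 8 libraries compared, the labelled adenine percentage, the replicate number as a block, and leaving out each library. Transcript lengths and shared 31-base words were taken from GENCODE M21 and promoters from RefSeq, both of the GRCm38 build; no coordinates were carried over to the files' build. Promoters of Cth and Cdo1 were not used here.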

Additional observations from a re-analysis of the deposited data

Results flagged for a closer look

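With 4 libraries in each group, a library was picked out where its gap to the nearest other library as a share of the group's whole range exceeded Dixon's 95% critical value. The checks covered named genes, library totals and mitochondrial percentages in each group. Of 141 such checks, 6 met this, all for genes, and chance gives about 1 in 20. Among the 9 genes, Bhmt in CKD replicate 3 had 1.22 CPM, with the other CKD libraries at 0.246 to 0.409 CPM, and Cdo1 in colchicine replicate 4 had 48.4 CPM, with the others at 65.3 to 67.8 CPM. Colchicine replicate 4 is the library labelled 5% adenine. Among the neighbouring genes, Bhmt2 in CKD replicate 3 had 11.5 CPM, with the others at 8.83 to 9.19 CPM, so both Bhmt genes stood high in that library. Ggct in colchicine replicate 4 had 7.97 CPM, with the others at 6.28 to 6.44 CPM. Tpmt in colchicine replicate 2 had 18.8 CPM, with the others at 27.1 to 28.7 CPM. Hnmt, a histamine methyltransferase, had 9.50 CPM in CKD replicate 1, with the others at 9.96 to 10.002 CPM.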

How the results depend on the processing

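In both comparisons with control, the total of genes called in either direction stayed within 1.5 times its value in all 17 alternatives, and 8 or 9 members stayed called lower; only 8 were left under library totals, which lost Cdo1, and under a minimum count of 50, which removed Bhmt. The split did not hold by library totals only, at 13197 higher and 1850 lower in place of 6076 and 5952 for CKD, and 13762 higher and 1953 lower in place of 6612 and 5964 for colchicine. By library totals only, the CKD log2 fold changes of Cdo1, Mtr and Slc6a8 reversed to 0.26, 0.51 and 0.23, and the colchicine ones against control of Mtr and Slc6a8 to 0.36 and 0.053. For colchicine against CKD, 2682 genes were called. Without one library the count ranged from 992 to 6401; it was 1756 with the replicate number as a block, 1008 with the adenine slope and 777 with the library labelled 2% alone. Of the 9 members 4 were called, 2 with the adenine slope and 3 by upper quartile. The member count was 5 by limma-voom and with the control libraries kept out, 6 by DESeq2 and 2 to 6 without one library. Lower calls over all tested genes moved as well, from 1470 to 616 with the adenine slope and 1185 by upper quartile. They were 1933 by limma-voom, 1071 with the control libraries kept out, 2266 by DESeq2 and 573 to 3519 without one library. Values near 0 changed sign: without one library, Bhmt ranged from -0.91 without colchicine replicate 3 to 0.14 without CKD replicate 3, and Gnmt from -0.11 without colchicine replicate 4 to 0.027 without colchicine replicate 2, with 0.0041 without CKD replicate 3; Gnmt was at 0.028 by upper quartile. With the adenine slope and the library labelled 2% alone, Mtr was at 7e-04 and 0.012, Gamt at -0.15 and -0.38, Csad at -0.18 and -0.29, and Mpst at -0.21 and -0.37. Mpst ranged from -0.0495 without colchicine replicate 4 to 0.13 without colchicine replicate 1, with -0.0103 without CKD replicate 2 and -0.0371 without colchicine replicate 2, and was at -0.0056 by DESeq2. The cause of these changes was not tested. Deviations of same-numbered libraries correlated at -0.279 to 0.189, against -0.37 to 0.417 for libraries of other numbers. No pairing by number was seen, though this check cannot exclude one. With the block, 4 members were again called for colchicine against CKD and 9 in each comparison with control. Bhmt and Gnmt rest on fewer than 60 counts per adenine-fed library, which limits their precision.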
